A study of Mus musculus with 21 samples.

Results

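The genes of the proteasome, the complex that breaks down ubiquitin-tagged proteins, were followed in the RNA of mouse microglia with and without apolipoprotein E (ApoE), a lipid carrier protein. Members were the rows whose names start with Psma, Psmb, Psmc, Psmd, Psme, Psmf or Psmg followed by a digit, without pseudogenes. This gave 50 of the 18221 rows of the table that compares genotypes and 49 of the 13297 rows of the table that compares injections. Among them, Psmc3ip is no proteasome subunit and Psme2b is a retrocopy of Psme2; both lay under the level filter and are set aside. The other names are 5 interferon-inducible members (Psmb8, Psmb9, Psmb10, Psme1 and Psme2) and 43 constitutive or accessory members, of which Psmb11 is not among the rows of the injection table.

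Microglia, the macrophages of the brain, were taken from mice aged 12 to 18 weeks. One table holds 7 libraries labelled wild-type (WT), from C57BL/6 females, and 4 labelled knockout (KO), also from females, of the strain B6.129P2-Apoetm1Unc/J, which carries a targeted null allele of Apoe. The other holds 10 libraries labelled as males of the knockout strain, 5 injected with phosphate-buffered saline (PBS) and 5 with recombinant APOE (rAPOE) dissolved in PBS. The mice of all 10 injected libraries thus lacked their own Apoe, the left hemisphere was injected, tissue was taken after 16 h from the injected and the opposite side, and the labels do not tell which side a library came from. The knockout is present in every cell of the body from the start of development, and the wild-type mice are another strain, so effects of strain and of lifelong loss cannot be told apart from the loss of ApoE in microglia. Nothing in the labels says that the libraries came from separate mice, and p-values then measure only the spread between these samples, which may be technical.

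The proteasome has a barrel-shaped 20S core of 2 outer alpha rings and 2 inner beta rings, and the cutting sites sit on the beta subunits Psmb5, Psmb6 and Psmb7. A 19S cap on the end of the barrel recognises ubiquitin, unfolds the protein with a ring of 6 ATPases, Psmc1 to Psmc6, and feeds it into the core. Interferon gamma makes cells replace the constitutive cutting subunits with Psmb8, Psmb9 and Psmb10, which gives the immunoproteasome, and adds the activator made of Psme1 and Psme2; both are known for making the peptides that class I molecules show to T cells. In microglia these genes are known to be raised in inflammation and ageing.

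The libraries differed before any proteasome gene was considered. Recovered read totals were 2016972 to 3054976 in WT libraries and 4247865 to 4969287 in KO libraries, yet 13592 to 15248 genes were detected in the former and 8117 to 10479 in the latter; the injected mice had 704225 to 1347501 reads. Apoe was at normalised counts of 13196 to 17163 in 6 WT libraries, 1011 in the library labelled WT 8 and at most 23.1 in KO libraries. The same 6 WT libraries held 11 to 36 reads of Y-linked genes although labelled female, and WT 8 held 0, as did the KO libraries. Xist was at 1127 to 1279 in these 6 WT libraries, 3291 in WT 8 and 1980 to 3292 in KO libraries. The 6 WT libraries thus held both Xist and Y-linked reads, and the part of sex in the genotype differences was not tested. Of the injected males, libraries 5 of both groups held no Y-linked reads and had Xist at 979 and 718. Libraries 4 and 5 of both injected groups detected 10025 to 11342 genes, and libraries 1 to 3 detected 7601 to 8837. Summed choroid plexus markers were 23736 to 83592 in WT and 429 to 887 in KO libraries, with 8 of 8 genes lower and Folr1 and Sostdc1 at 0 in all KO libraries. Neuron markers (68.6 to 1009 against 0 to 64.6; 6 of 7 tested lower; Map2, Rbfox3 and Syp at 0) and astrocyte markers (1269 to 2238 against 540 to 1008; 5 of 6 tested lower; Gfap and Aldh1l1 at 0) were also lower. So were monocyte markers (83.0 to 1575 against 0 to 70.5; 5 of 7 tested lower; S100a4, Plac8 and Vcan at 0), and of the oligodendrocyte markers (190 to 626 against 92.5 to 282; Mog and Mobp at 0) 2 of 5 tested were lower. Microglia markers were 50000 to 68801 in WT and 68443 to 80855 in KO libraries, with 6 of 10 higher, so the labelled cell type was present in both. WT 8 alone set the low end of these WT ranges, except for microglia markers, where it set the high end. In the other WT libraries the sums were at least 57405 for choroid plexus, 765 for neuron and 2018 for astrocyte markers. They were at least 1392 for monocyte and 527 for oligodendrocyte markers, and 50000 to 53413 for microglia markers. The part of these differences between libraries in the proteasome results was not tested. In bulk RNA, fewer cells of a type and less RNA per cell cannot be told apart.

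Between genotypes, 1 of the 5 inducible members rose in KO microglia, the cutting subunit Psmb9, and 5 of the 41 constitutive or accessory members tested fell: the alpha subunit Psma7, the ATPases Psmc1, Psmc3 and Psmc5, and the lid subunit Psmd7. Differences are on the scale of log2(normalised count + 1), KO minus WT, and a member passed when its limma p-value, adjusted by the Benjamini-Hochberg method over 10401 genes, was under 0.05. By that rule 25% of all genes tested passed, 5.14% higher and 19.8% lower. Of the constitutive or accessory members 12.2% fell, and all 5 of these had a mean of 50 to 500 normalised counts. At that level 5 of 32 members (15.6%) and 769 of 5142 genes were lower, so the members' share was near the background. Their median difference was -0.31 with 9 of 41 above 0, against a median of -0.45 over all genes. The order of the 2 medians depended on level and method: it was -0.28 against -0.18 at 50 to 500 normalised counts, -0.28 against -0.14 with a mean of at least 50, -0.23 against -0.17 by edgeR and -0.24 against -0.19 by DESeq2. By quantile normalisation, which moved the median of all genes to 0.09, 15 of 41 were above 0 and their median was -0.21. The inducible members had a median of -0.10. The constitutive or accessory members, summed, were at 5987 in WT 8 and 7436 to 7950 in the other WT libraries. In KO libraries the sum was 5850 to 6626, so on this scale the groups overlapped only through WT 8. All members together made up 0.186% of recovered reads in WT 8 and 0.345% to 0.382% in the other WT libraries. The share was 0.305% to 0.336% in KO libraries, so by share of reads WT 8 lay below every KO library. Among WT libraries, WT 8 was the lowest for 21 of 46 members tested and for 36.4% of all genes tested. Among KO libraries, KO 3 was the lowest for 21 of 46 members and for 31.9% of all genes tested. KO 3 detected 8117 genes, the fewest of the KO libraries, and 27.3% of all genes tested were at 0 in it. Psma8 and Psmb11 lay under the filter of a mean of 10 normalised counts and were not tested. Where a call below depends on a setting, the share of all genes that passed under it was 15.9% by edgeR, 18.7% after quantile normalisation, 17.5% with a replicate block, 30.6% without WT 8, and 24.5%, 26.3%, 24.6% and 25.4% without KO 1, 2, 3 and 4. WT 6, 7 and 8 have no KO library of the same number. The difference with the block, and its spread, therefore rest on libraries 1 to 4 of both groups.

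**Figure D1:**
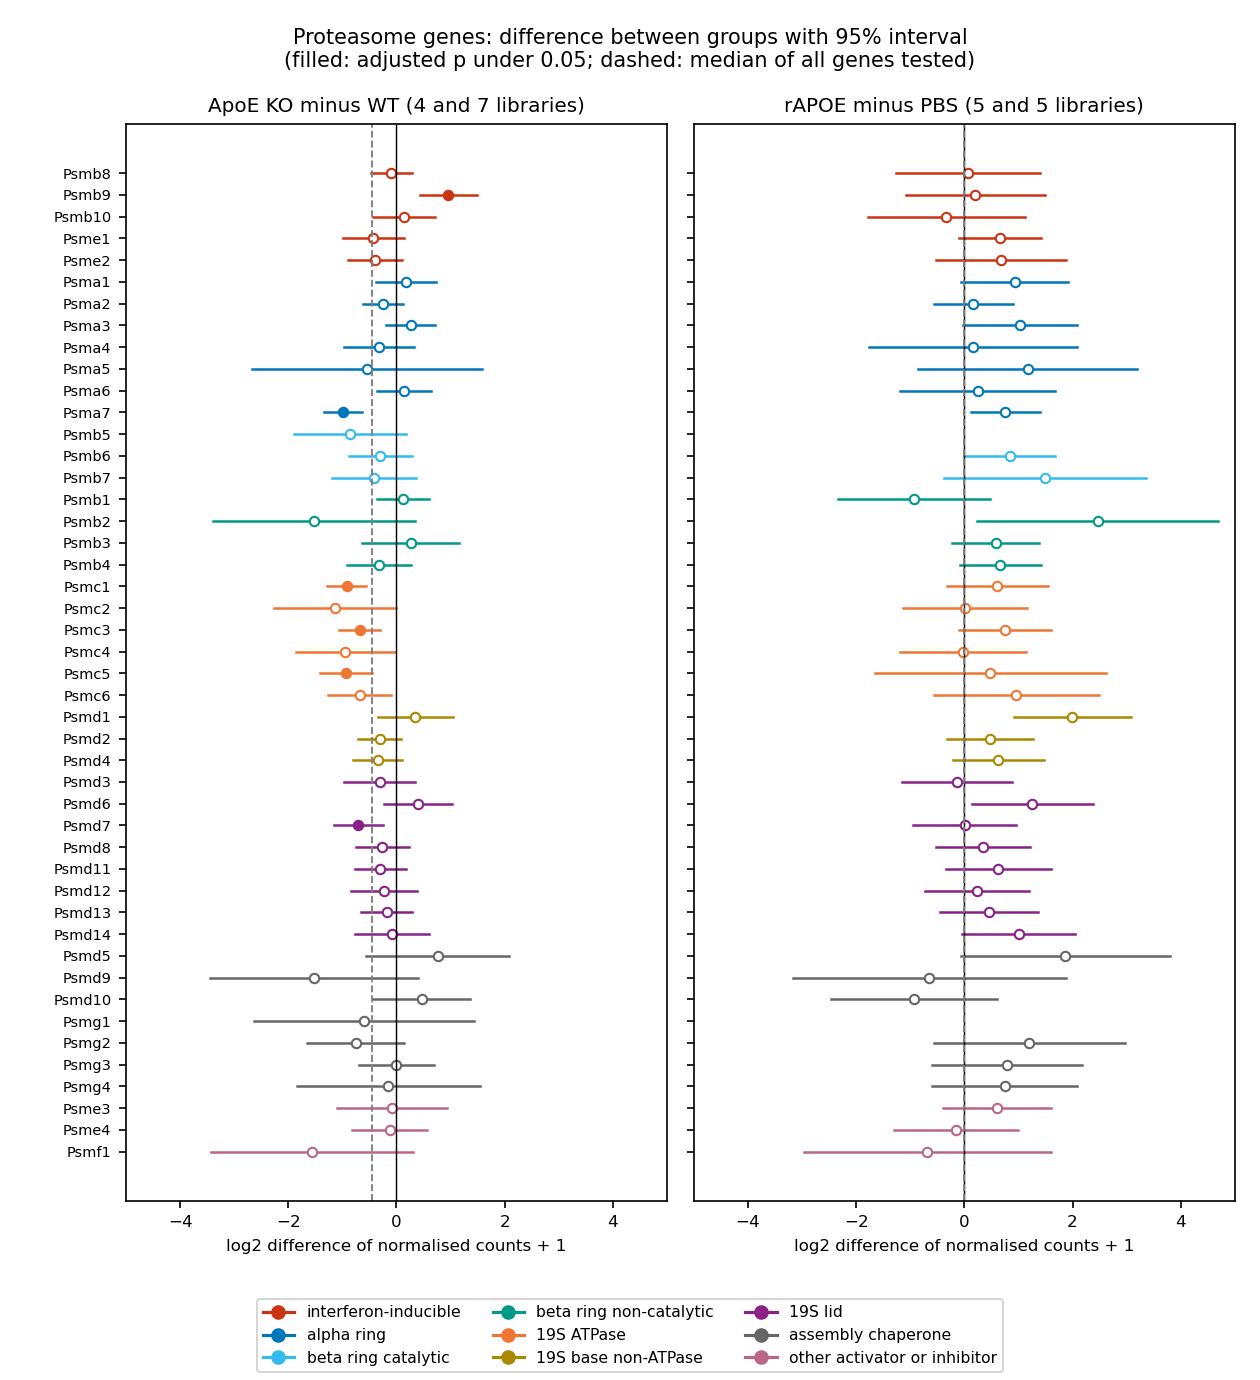
Difference between groups on the log2(normalised count + 1) scale (x axis) for each proteasome gene (y axis, coloured by role), KO minus WT on the left and rAPOE minus PBS on the right, with 95% intervals from limma. Filled points passed at an adjusted p under 0.05, 6 on the left and none on the right; the dashed line is the median of all genes tested, -0.45 and -0.01.

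Psmb9, the inducible counterpart of the cutting subunit Psmb6, was at a normalised count of 55.4 at the lowest, 88.8 at the median and 121 at the highest in the WT libraries. It was at 196, 156, 147 and 145 in KO libraries 1 to 4. All 4 KO libraries lay above all 7 WT libraries, a pattern that 3.67% of all genes tested showed. The means were 84.1 ± 21.8 (SD, n = 7) and 161 ± 24.0 (SD, n = 4), a difference of 0.96 (SE 0.25, limma adjusted p = 0.011). Without WT 8 the difference was 0.91 (adjusted p = 0.0095). With a replicate block, which compares libraries 1 to 4 only, Psmb9 did not pass (adjusted p = 0.062). Of 8 T and NK cell markers, Cd3e, Cd3d, Cd3g, Nkg7, Gzma, Ncr1 and Cd8a were at 0 in every KO library and Trbc2 was at 5.79 in KO 2. Gzma, the 1 tested, was lower. The sum was 0 in WT 8, 32.5 to 103 in the other WT libraries and 0 to 5.79 in KO libraries. Neutrophil markers, summed, were at 153 in WT 8 and 1989 to 2644 in the other WT libraries. In KO libraries they were at 1575 to 6116, and 0 of 5 tested passed. The part of either cell type in the value of Psmb9 was not tested.

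The other inducible members did not pass. Psmb8, the inducible counterpart of Psmb5, was at 186 at the lowest, 267 at the median and 318 at the highest in WT and at 258, 296, 204 and 220 in KO libraries, a difference of -0.10 with an interval of -0.48 to 0.28. Psmb10, the counterpart of Psmb7, was at 108 to 230 in WT (median 151) and at 131, 187, 249 and 145 in KO libraries, a difference of 0.13 (interval -0.44 to 0.71). The groups overlapped for both genes, and both intervals exclude a 2-fold change.

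Psme1 and Psme2 encode the subunits of the activator ring that interferon adds to the core. Psme1 was at 208 to 349 in WT (median 316) and at 392, 154, 140 and 254 in KO libraries, a difference of -0.43 (SE 0.26, adjusted p = 0.25). KO 1 held the highest value of all 11 libraries, and without it the difference was -0.71 and passed (adjusted p = 0.039). Psme2 was at 121 to 193 in WT (median 146) and at 123, 76.6, 131 and 144 in KO libraries, a difference of -0.39 (SE 0.23, adjusted p = 0.23).

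Psmb9 and Psmb8 lie side by side at chr17:34181987-34187764 (minus strand) and chr17:34197721-34201454 (plus strand) of GRCm38 (GENCODE M21), with the peptide transporter gene Tap1 between them and Tap2 beyond. Tap1 was at 63.7 to 126 in WT and at 125, 97.5, 197 and 117 in KO libraries (0.46, SE 0.26, adjusted p = 0.21), and Tap2 differed by 0.57 (SE 0.27, adjusted p = 0.14). Among these 4 neighbours only Psmb9 passed; differences between the neighbours were not tested. The short stretches below are from RefSeq (GRCm38.p6) and are shown because Psmb9 passed and its neighbour Psmb8 did not. Capitals mark the kappa B motif, searched as GGG, any 5 bases and CC on both strands, in Psmb9 (3 matches, 2 of them overlapping; minus strand, chr17:34187480-34187508) and the gamma-activated site (GAS), searched as TTCNNNGAA on both strands, in Psmb8 (plus strand, chr17:34198088-34198116). Both stretches lie before the RefSeq start and within exons of GENCODE M21.
Psmb9: GGCCCCACCCcagattgaGGGCAGGACCC
Psmb8: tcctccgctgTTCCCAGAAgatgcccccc
The kappa B letters were in 50.8% and the GAS letters in 8.3% of all 32851 RefSeq promoters of the same length, 250 bases before to 50 after the start. The GAS letters were in 1 of 5 inducible members (Psmb8) and in 2 of 35 matched constitutive or accessory members (Psmd2 and Psmg1), against 9.55% of all genes. The interferon-stimulated response element, searched as GAAA, any 2 bases and GAAA on both strands, was in 3.44% of promoters and 3.99% of genes. It was in 1 of 5 inducible members (Psme1) and in 4 of 35 constitutive or accessory members (Psmb3, Psmd4, Psmd9 and Psmg4).

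**Figure D2:**
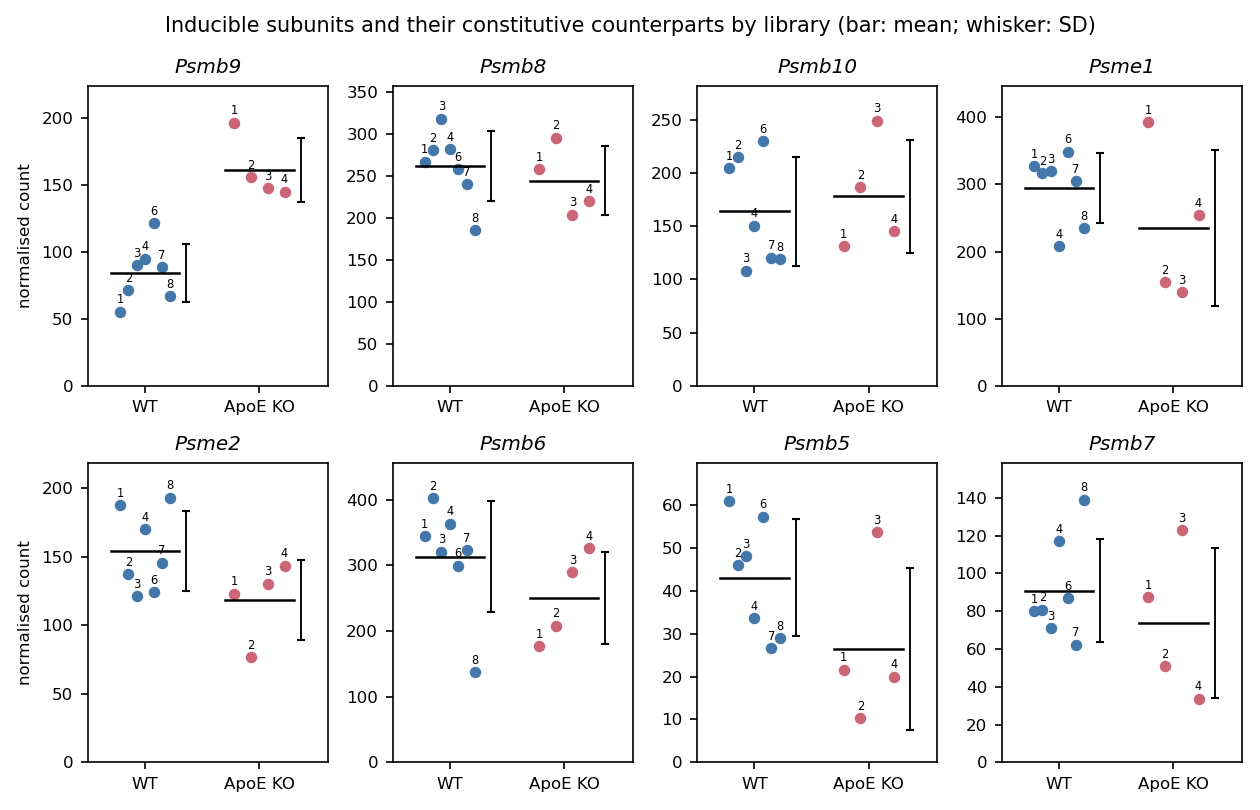
Normalised counts (y axis, starting at 0) of the 5 inducible members and of the constitutive cutting subunits Psmb6, Psmb5 and Psmb7 in each WT and KO library, numbered by library, with the group mean as a bar and the SD as a whisker. The 4 KO values of Psmb9, 145 to 196, lie above the 7 WT values, 55.4 to 121, and the other panels overlap.

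The constitutive cutting subunits all had differences below 0, and none passed. Psmb6 was at 137 at the lowest, 323 at the median and 402 at the highest in WT, and at 177, 208, 290 and 326 in KO libraries (-0.30, SE 0.27, adjusted p = 0.44). WT 8 was the lowest of all 11 libraries, and without it the difference was -0.49 and passed (adjusted p = 0.049). Psmb5 was at 26.5 to 60.8 in WT (median 45.9) and at 21.6, 10.2, 53.6 and 19.9 in KO libraries (-0.86, SE 0.49, adjusted p = 0.22). KO 3 stood apart from the other KO libraries for Psmb5, and without it the difference was -1.27 (adjusted p = 0.043). Psmb7 differed by -0.42 (SE 0.36, adjusted p = 0.42). All 3 have named pseudogenes in GENCODE M21, so part of their reads may have been split or lost in the authors' counting.

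Within each library the 3 inducible cutting subunits, summed, were set against the 3 constitutive ones. This ratio of summed normalised counts was 1.03 to 1.37 (median 1.09) in WT and 2.05, 2.37, 1.29 and 1.34 in KO libraries, so that KO 1 and KO 2 exceeded every WT library and KO 3 and KO 4 did not. The ratio of Psmb9 to Psmb8 was 0.21 to 0.47 (median 0.34) in WT and 0.76, 0.53, 0.72 and 0.66 in KO libraries, with no overlap. No test was run on these ratios.

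In the alpha ring, the outer gate of the core, Psma7 fell and the other 6 members tested did not pass. Psma7 (chr2:180036374-180042433, minus strand) was at 307 at the lowest, 408 at the median and 439 at the highest in WT and at 249, 216, 157 and 181 in KO libraries. The groups did not overlap, as for 10.6% of all genes tested in that direction. The means were 395 ± 43.8 (SD, n = 7) and 201 ± 40.0 (SD, n = 4), a difference of -0.98 (SE 0.16, limma adjusted p = 0.00054). The other alpha subunits ranged from -0.55 (Psma5, at 0 in KO 3 and 58.1 to 124 in the other KO libraries, with the higher mean in KO, 62.6 against 38.9) to 0.27 (Psma3, 91.7 to 173 in WT and 135 to 145 in KO). Without KO 3, Psma5 differed by 1.03 and passed (adjusted p = 0.046). The median over the 7 was -0.25, and 0.21 after quantile normalisation, so the ring as a whole had no direction that held under both scalings.

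Of the non-cutting beta subunits, Psmb1 and Psmb3 had differences of 0.12 and 0.26 and Psmb4 and Psmb2 of -0.32 and -1.52; none passed. Psmb2 was at 10.9 to 50.8 in WT and at 38.6, 0, 26.4 and 8.42 in KO libraries (SE 0.87, adjusted p = 0.22). Without WT 8, Psmb4 differed by -0.52 and passed (adjusted p = 0.025).

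The 6 ATPases of the 19S base, which unfold the substrate and open the gate of the core, all had differences below 0, between -0.68 and -1.14, with a median of -0.92. They remained 6 of 6 below 0 by edgeR, DESeq2, quantile normalisation, the replicate block and without WT 8. Of these, 3 passed at the adjusted threshold, and all 6 had an unadjusted limma p under 0.05 in that direction, as did 28.2% of all genes tested (8.24% were higher). Psmc1 (chr12:100110154-100123405) was at 348 at the lowest, 363 at the median and 473 at the highest in WT and at 144, 248, 217 and 207 in KO libraries. All KO values lay below all WT values; the means were 381 ± 45.0 (SD, n = 7) and 204 ± 43.5 (SD, n = 4), a difference of -0.92 (SE 0.17, limma adjusted p = 0.0012).

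Psmc5 (chr11:106256154-106263120) was at 110 at the lowest, 174 at the median and 196 at the highest in WT and at 70.9, 83.3, 75.6 and 112 in KO libraries. Only KO 4 reached the range of WT, at its lower end, which was WT 8. The difference was -0.93 (SE 0.23, adjusted p = 0.0079), and -1.02 without WT 8 (adjusted p = 0.0011). Psmc3 (chr2:91054009-91066369) was at 446 at the lowest, 506 at the median and 578 at the highest in WT and at 461, 322, 223 and 328 in KO libraries. KO 1 overlapped WT; the difference was -0.68 (SE 0.18, adjusted p = 0.012). The last 500 bases of Psmc3 overlap Slc39a13 on the other strand, and no source used here names the strand setting of the counting. The same limit holds for Psmb8 (Gm20496), Psmb10 (Gm16156), Psme1 (Emc9), Psmb7 (Nek6) and Psma3 (3110056K07Rik).

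The other 3 ATPases varied more among the KO libraries. Psmc2 was at 108 to 155 in WT and at 141, 32.1, 13.4 and 152 in KO libraries (-1.14, SE 0.53, adjusted p = 0.13). Psmc4 was at 36.1 to 82.6 in WT and at 39.7, 58.3, 12.1 and 42.6 in KO libraries (-0.95, SE 0.43, adjusted p = 0.12). Psmc6 was at 112 to 146 in WT and at 103, 123, 48.8 and 57.2 in KO libraries (-0.68, SE 0.27, adjusted p = 0.083). For Psmc2 the KO libraries fell into a pair within the WT range and a pair far below it, and in all 3 genes KO 3 was the lowest library. Without KO 1 or KO 4, Psmc2 passed (adjusted p = 0.045 and 0.037), and without KO 2, Psmc6 did (adjusted p = 0.024).

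**Figure D3:**
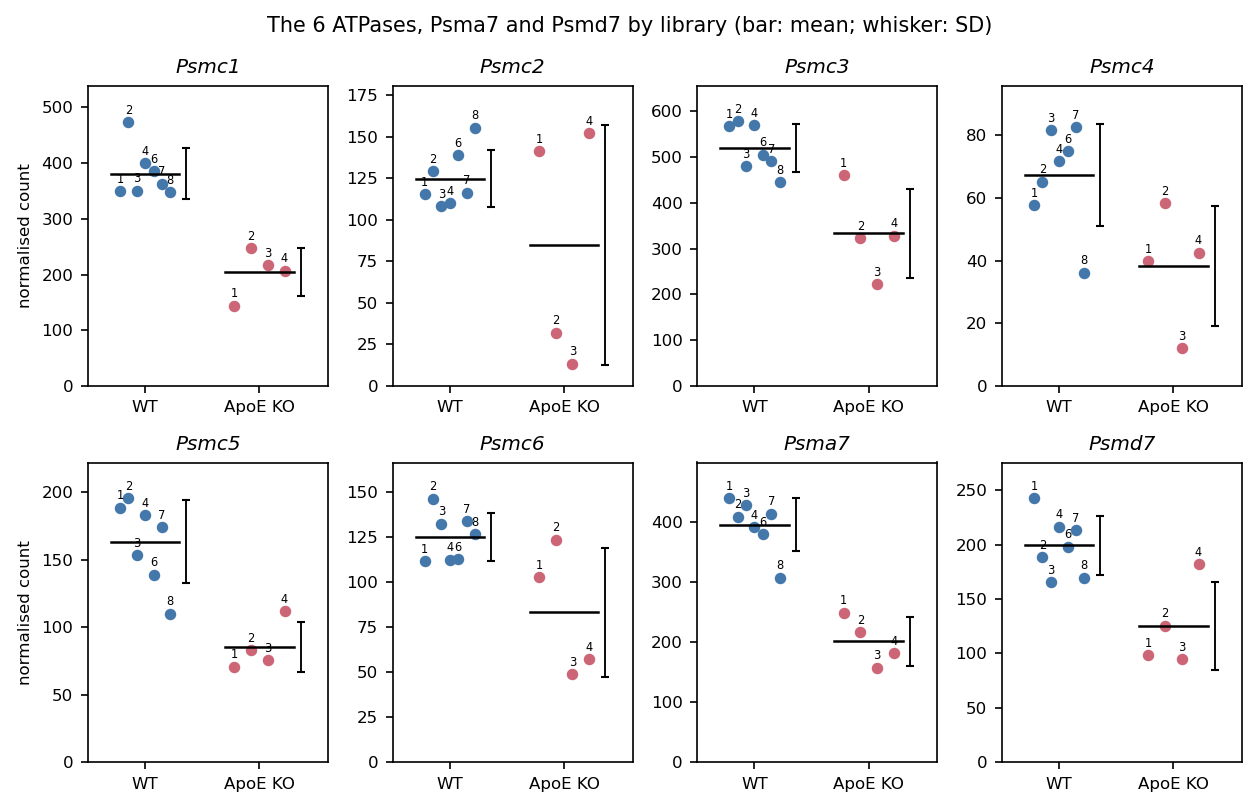
Normalised counts (y axis, starting at 0) of the 6 ATPases, Psma7 and Psmd7 in each WT and KO library, numbered by library, with the group mean as a bar and the SD as a whisker. Psmc1 and Psma7 do not overlap between the groups, and Psmc2 in KO libraries spreads from 13.4 to 152.

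Because all 6 ATPases lay below 0, the stretches upstream of 3 of them are printed from RefSeq (GRCm38.p6), bases -250 to -51 of the start, where GENCODE M21 has no exon: Psmc1 at chr12:100109952-100110151 (plus strand), Psmc4 at chr7:28050143-28050342 (minus strand) and Psmc6 at chr14:45329574-45329773 (plus strand). Capitals mark the kappa B letters and the letters TGANNNNGC, searched on both strands as the antioxidant response element that Nfe2l1, the transcription factor known for switching on proteasome genes, binds.
Psmc1: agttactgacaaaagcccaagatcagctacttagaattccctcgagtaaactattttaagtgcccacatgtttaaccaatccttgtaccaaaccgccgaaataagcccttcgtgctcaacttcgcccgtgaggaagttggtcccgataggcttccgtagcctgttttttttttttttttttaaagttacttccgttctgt
Psmc4: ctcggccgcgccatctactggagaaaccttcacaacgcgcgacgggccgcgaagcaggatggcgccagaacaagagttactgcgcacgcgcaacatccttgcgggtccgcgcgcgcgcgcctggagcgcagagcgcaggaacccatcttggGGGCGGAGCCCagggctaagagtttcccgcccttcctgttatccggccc
Psmc6: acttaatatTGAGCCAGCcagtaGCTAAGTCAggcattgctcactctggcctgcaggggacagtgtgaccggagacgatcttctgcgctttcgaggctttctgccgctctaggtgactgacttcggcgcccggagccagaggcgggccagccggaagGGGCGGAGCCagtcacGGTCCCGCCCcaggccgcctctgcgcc
Psmc6 holds a pair of response element matches near the far end and 2 kappa B matches nearer the start, Psmc4 holds 2 overlapping kappa B matches, and Psmc1 holds neither set of letters. The response element letters were in 41.3% of all promoters of the same length, counted by transcript start. They were in 20 of 35 matched constitutive or accessory members and 3 of 5 inducible members, counted by gene, against 45% of all 27025 genes. The kappa B letters were in 19 of 35 and 3 of 5, against 53.5% of all genes. The matched promoter of Psmc5, which passed, held neither set of letters and is not printed.

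The 6 ATPases, summed, were at 1222 to 1587 normalised counts in WT (median 1361) and at 590 to 960 in KO libraries, with no overlap. The alpha ring, summed, was at 1194 to 1448 in WT and at 1069 to 1259 in KO libraries, with overlap. Their ratio was 0.86 to 1.21 in WT (median 1.03) and 0.78, 0.79, 0.47 and 0.84 in KO libraries. The KO libraries all lay below the lowest WT library, WT 8, with KO 3 furthest away; no test was run on these sums and the ratio.

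**Figure D4:**
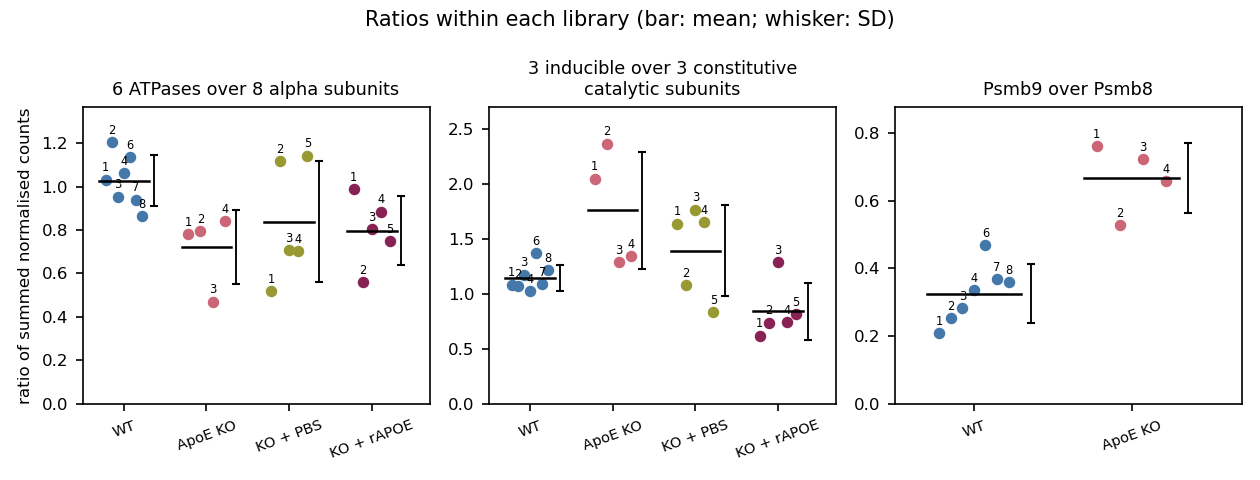
Ratios of summed normalised counts within each library (y axis, starting at 0) for the ATPases over the alpha ring, the inducible over the constitutive cutting subunits and Psmb9 over Psmb8, with the group mean as a bar and the SD as a whisker; the genotype and injection groups were normalised apart. The ATPase ratio is 0.86 to 1.21 in WT and 0.47 to 0.84 in KO libraries, and overlaps between PBS and rAPOE.

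The non-ATPase members of the base did not pass. Psmd2, a scaffold that docks ubiquitin shuttles, differed by -0.31 (SE 0.18, adjusted p = 0.24), the ubiquitin receptor Psmd4 by -0.35 (SE 0.22, adjusted p = 0.26) and the scaffold Psmd1 by 0.35 (SE 0.33, adjusted p = 0.46). Psmd1 reached 462 in KO 3 and was at 101 to 221 in the other KO libraries, against 112 to 217 in WT. Without WT 8, Psmd4 differed by -0.50 and passed (adjusted p = 0.0040).

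Of the 8 lid members, the part of the cap that removes ubiquitin, 7 had differences below 0 and 1 passed. Psmd7 (chr8:107580381-107588464, minus strand), the partner of the ubiquitin-removing enzyme Psmd14, was at 166 at the lowest, 198 at the median and 242 at the highest in WT and at 98.8, 126, 95.1 and 182 in KO libraries. KO 4 lay within the WT range and the other KO libraries below it. The difference was -0.70 (SE 0.21, limma adjusted p = 0.026), and it did not pass by edgeR (adjusted p = 0.068), after quantile normalisation (0.061) with the replicate block (0.085), or without WT 1, 4 or 7 or KO 1 or 3 (up to 0.068). Psmd14 itself was at 62.5 to 137 in WT and at 51.9 to 123 in KO libraries (-0.08, interval -0.76 to 0.60), and Psmd6 was the lid member with a difference above 0 (0.39, SE 0.29, adjusted p = 0.35).

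None of the 7 assembly chaperones or of the 3 other regulators passed. The chaperone with the smallest p was Psmg2, which pairs alpha subunits early in assembly (43.9 to 67.3 in WT, 18.2 to 73.9 in KO; -0.75, SE 0.42, adjusted p = 0.21), and without KO 3 it differed by -1.15 and passed (adjusted p = 0.028). Psmd10, a chaperone of the base, differed by 0.47 (SE 0.42) and passed only without KO 2 (0.98, adjusted p = 0.038). Psmf1, an inhibitor of the core, was at 17.7 to 68.3 in WT and at 0 to 52.2 in KO libraries (-1.56, SE 0.88, adjusted p = 0.21). The activators Psme3 and Psme4 differed by -0.07 and -0.12. Psma5, Psmd9, Psmg1 and Psmf1 were at 0 in KO 3 and Psmb2 in KO 2, while no member tested was at 0 in a WT library. The same held for genes at large: 11.4% to 27.3% of all genes tested were at 0 in each KO library and 0.14% to 2.48% in each WT library.

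Members varied more among KO than among WT libraries. The SD on the log2 scale was larger in KO for 34 of 46 members tested and for 74.3% of all genes. The median coefficient of variation was 36.0% in KO and 24.8% in WT libraries, against 6.01% and 8.85% from read counting alone. Psma3 varied least in KO (3.18%) and Psmf1 most (103%).

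Among 16 tested partners of the proteasome, 1 rose and 1 fell, where 5.14% of all genes tested rose and 19.8% fell. Nfe2l1 (chr11:96817414-96829968, minus strand), the transcription factor named above, was at 193 at the lowest, 239 at the median and 276 at the highest in WT and at 67.0, 53.0, 64.4 and 61.2 in KO libraries. The groups were far apart; the difference was -1.89 (SE 0.18, limma adjusted p = 7.2e-06). Akirin2, which brings proteasomes into the nucleus, was at 214 to 325 in WT and at 641, 566, 740 and 442 in KO libraries, a difference of 1.14 (SE 0.17, adjusted p = 0.00017). The maturation factor Pomp (-0.07), the protease Ddi2 that activates Nfe2l1 (-0.10) and the related factor Nfe2l2 (0.41, SE 0.26, adjusted p = 0.27) did not pass.

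Of 17 interferon signalling genes, 6 rose and 1 fell, with a median of 0.47. Over all genes tested, 5.14% were higher and 19.8% lower. Among genes with a mean of 500 or more, the level of Ifngr1 and Irf8, 142 of 572 were higher and 74 lower. The receptor chain Ifngr1 was at 824 to 1497 in WT and at 2912, 3021, 2297 and 3079 in KO libraries (1.50, SE 0.17, adjusted p = 2.2e-05). Irf8, a transcription factor of microglia, differed by 0.56 (SE 0.13, adjusted p = 0.0049), Ifngr2 by 0.76 (SE 0.19, adjusted p = 0.0076) and Ifnar2 by 0.48 (SE 0.14, adjusted p = 0.025). Irf1 (0.30, SE 0.26, adjusted p = 0.42), a transcription factor that interferon gamma induces, did not pass, and Stat3 fell (-0.39, SE 0.13, adjusted p = 0.049). The summed microglia markers, which hold no interferon gene, were also higher in KO libraries than in the WT libraries other than WT 8. Their part in these values was not tested. Of 18 peptide-loading genes 1 passed, Tapbpl, a peptide editor, which fell (-0.74, SE 0.24, adjusted p = 0.038), with a median of -0.18; of 20 ubiquitin supply and shuttle genes 0 passed (median -0.18).

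After the injection of rAPOE, none of the 44 members tested passed against PBS, where 0.481% of 7066 genes did, 0.368% higher and 0.113% lower. The differences lay mostly above 0: 32 of the 39 constitutive or accessory members tested, with a median of 0.61 against -0.01 over all genes, and 4 of the 5 inducible members, with a median of 0.20. At an unadjusted p under 0.05 there were 4 members higher and 0 lower, against 5.22% and 5.99% of all genes. Both edgeR and DESeq2 also called 0 members, with 0.34% and 1.61% of all genes called. The summed normalised counts of the constitutive or accessory members were 1643 to 2324 with PBS and 2213 to 3236 with rAPOE, with overlap. Psma8, Psmb5 and Psmg1 lay under the filter. Leaving out both libraries numbered 5, which lacked Y-linked reads, 28 of 38 differences lay above 0 with a median of 0.58, and 0.157% of all genes passed.

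Precision was low here. The median width of the members' 95% intervals was 2.26 on the log2 scale, and 42 of 44 intervals included a 2-fold change in at least one direction. Microglia markers moved in the same comparison: their sum was 21072 to 25276 with PBS and 10848 to 23047 with rAPOE, and P2ry12, Gpr34 and Siglech passed as lower, 3 of 10. Their part in the proteasome values was not tested.

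Psmd1, the scaffold of the base, came nearest to the threshold. It was at 9.10, 15.2, 43.2, 71.1 and 79.2 in PBS libraries 1 to 5 and at 169, 120, 100.4, 126 and 160 in rAPOE libraries 1 to 5. All rAPOE libraries lay above all PBS libraries, as did 1.59% of all genes tested; 1.54% lay below and no member did. The means were 43.5 ± 31.7 and 135 ± 28.6 (SD, n = 5 each), a difference of 1.998 (SE 0.52, limma adjusted p = 0.10). With a pseudocount of 5 in place of 1 it passed (1.83, adjusted p = 0.042; 0.906% of all genes passed), and without both libraries 5 the difference was 2.25 (adjusted p = 0.20). The last 500 bases of Psmd1 (chr1:86064387-86139151) overlap Gm21972 on the same strand, so the reads of these 2 genes may not be separable.

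In the core, Psma7 was at 141, 101, 112, 98.8 and 95.2 with PBS and at 165, 117, 199.7, 186 and 295 with rAPOE, a difference of 0.76 (SE 0.31, adjusted p = 0.36). PBS 1 reached into the range of rAPOE. All 7 alpha subunits tested had differences above 0, with a median of 0.76, and 6 of 7 did without both libraries 5. Psmb6 was at 60.4, 202, 48.0, 44.8 and 79.8 with PBS and at 169, 187, 97.4, 102 and 128 with rAPOE (0.84, SE 0.41, adjusted p = 0.45); PBS 2 was higher than every rAPOE library. Psmb2 was at 0 in 2 PBS libraries and at 7.07 to 53.5 with rAPOE (2.47, SE 1.07, adjusted p = 0.40). Psmb1 pointed the other way (-0.93, SE 0.68, adjusted p = 0.64). The PBS mean of Psmb2 was 5.40, under the level of the filter, so Psmb2 was tested only through its rAPOE values. Psmb2 is among the members counted above as above 0 and as higher by unadjusted p.

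The inducible cutting subunits overlapped throughout. Psmb9 was at 64.5, 21.5, 9.60, 52.7 and 25.7 with PBS and at 44.8, 35.3, 49.2, 27.9 and 17.9 with rAPOE, a difference of 0.20 with an interval of -1.08 to 1.49. Psmb8 differed by 0.07 (interval -1.27 to 1.40) and Psmb10 by -0.34 (interval -1.79 to 1.12). These intervals include a 2-fold change either way. The ratio of inducible to constitutive cutting subunits was 1.64, 1.08, 1.77, 1.65 and 0.84 with PBS and 0.62, 0.74, 1.29, 0.74 and 0.81 with rAPOE, with overlap.

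Psme1, the activator subunit, was at 59.6, 55.6, 83.2, 58.6 and 54.1 with PBS and at 82.5, 72.6, 88.3, 103 and 164 with rAPOE (0.66, SE 0.37, adjusted p = 0.51). The groups were apart except for PBS 3. Psme2 was at 8.85 to 53.8 with PBS and at 31.1 to 64.8 with rAPOE (0.68, SE 0.58, adjusted p = 0.71). The sum of both was 64.5 to 113 with PBS and 116 to 195 with rAPOE, with no overlap and no test.

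In the cap, the ATPases had a median difference of 0.55 with 5 of 6 above 0 (4 of 6 by edgeR and by DESeq2), Psmc3 having the smallest p (0.76, SE 0.41, adjusted p = 0.50). Psmc1, Psmc5 and Psmc3, which fell in KO females, were at differences of 0.61, 0.48 and 0.76 here. For Psmc5 the means ran the other way: it was at 14.9, 8.85, 3.2, 0.66 and 65.6 with PBS (mean 18.6) and at 8.25, 12.1, 13.0, 14.7 and 13.2 with rAPOE (mean 12.3). PBS 1 and PBS 5 were above and PBS 3 and PBS 4 below every rAPOE library, and no direction is given for this gene. The lid subunit Psmd6 was at 39.7, 64.5, 25.6, 11.2 and 30.9 with PBS and at 165, 63.6, 82.3, 32.6 and 70.7 with rAPOE (1.26, SE 0.54, adjusted p = 0.39), and Psmd7 differed by 0.005 (interval -0.94 to 0.95). The chaperone Psmd5 (1.87, SE 0.93, adjusted p = 0.47) and the nuclear activator Psme3 (0.60, SE 0.48, adjusted p = 0.68) had the smallest p of their classes.

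Of the 14 partners of the proteasome tested, 0 passed by limma. Nfe2l1 was at 39.7, 40.5, 20.8, 24.4 and 29.0 with PBS and at 74.2, 81.7, 64.2, 71.4 and 103 with rAPOE. The groups did not overlap, as for 1.59% of all genes tested in that direction. The difference was 1.35 (SE 0.44, limma adjusted p = 0.23). By DESeq2, where 1.61% of all genes were called, the adjusted p was 0.047. None of 14 peptide-loading, 16 interferon signalling and 19 ubiquitin supply genes passed either; their medians were 0.04, 0.04 and 0.36.

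**Figure D5:**
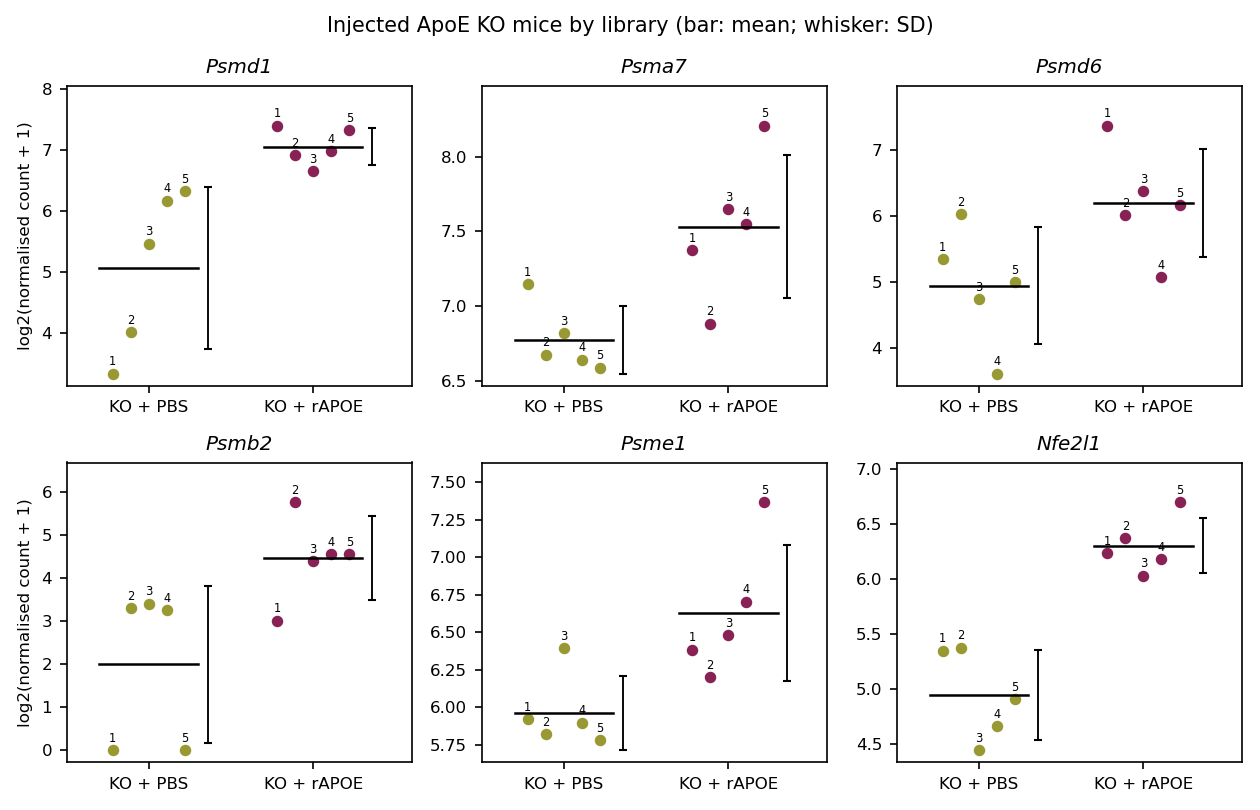
Values on the log2(normalised count + 1) scale (y axis) of 5 proteasome genes and Nfe2l1 in each library of injected knockout mice, numbered by library, with the group mean as a bar and the SD as a whisker. Psmd1 and Nfe2l1 do not overlap between PBS and rAPOE, and the other panels do.

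The 2 comparisons share no libraries. Of the 44 members tested in both, 28 had a difference below 0 in KO females and above 0 after rAPOE, 8 were above 0 in both, 5 below 0 in both, and 3 above and then below. Taken alone, 35 of 46 members tested lay below 0 between genotypes and 36 of 44 above 0 after rAPOE. Signs unrelated between the comparisons would thus also put many genes in the group of 28. Across these genes, which are not independent replicates, the 2 sets of differences had a Pearson correlation of 0.07, given as a description. Of the 6 members that passed between genotypes, Psmb9 was at 0.96 and 0.20, Psma7 at -0.98 and 0.76, Psmc1 at -0.92 and 0.61, Psmc5 at -0.93 and 0.48 (with the lower mean after rAPOE), Psmc3 at -0.68 and 0.76, and Psmd7 at -0.70 and 0.005. The tables were normalised separately and differ in sex label and procedure, and the difference between the 2 comparisons was not tested.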

How the data were processed

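Libraries were QuantSeq 3′ FWD preparations of total RNA, read on an Illumina MiniSeq, per the labels' protocols; such a library gives 1 tag near the 3′ end of a transcript, so values were not divided by length and levels of different genes are not compared. The deposited values are a signal per gene, here called normalised counts: counts divided by 1 factor per library by the authors, as the values show, since 100% of them are whole multiples (tolerance 0.01 reads) of 1 step. The submitters' processing notes list the build GRCm38.p3 and the tools R 3.2.3, Picard 1.8.4, DESeq2 and HTSeq without saying what each did. No source used here names the aligner, the annotation or the strand setting. The 22 gene names turned into dates (0.0966% of the summed values) and 120 rows at 0 were left out of the genotype table. The header of that table is shifted by 1 field, and its columns were read in that order.

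Each table was fitted on its own with limma 3.58.1 (R 4.3.3; lmFit, eBayes with trend) on log2(normalised count + 1), over genes with a mean of at least 10, with Benjamini-Hochberg adjustment over all genes tested and a threshold of 0.05. Alternatives were pseudocounts of 0.5 and 5, a mean of at least 50 or no filter, TMM and quantile scaling, edgeR 4.0.16 and DESeq2 1.42.0 on the whole reads recovered, a replicate block and leaving out libraries. Between genotypes the block compares libraries 1 to 4 only, since WT 6, 7 and 8 share no number with a KO library. The limma fit was tested on simulated data. Named with values were the inducible members, their constitutive counterparts, every member that passed, the member with the smallest p in each class where none passed, and up to 4 partners per list that passed, by adjusted p; members, lists and rule were chosen with earlier results of these data known, and further genes were named after their values were seen. Promoters were matched by symbol (5 inducible and 35 other members) and positions taken from GENCODE M21.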

Additional observations from a re-analysis of the deposited data

Results flagged for a closer look

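Among 96 sets of values from groups of 4, 5 or 7 libraries, 9 held a library whose gap to its nearest neighbour exceeded Dixon's limit, 9.375% where chance gives about 1 in 20 (5%). Between genotypes, the ratio of ATPases to alpha ring in KO 3 was 0.4691, below the other KO libraries, Psmb6 in WT 8 was 137.2, below the other WT libraries, and Psmc1 in WT 2 was 473.1, above them. With PBS, Psmb10 at 154.2 and Psmb6 at 202.3, both in library 2, and Psme1 at 83.19 in library 3 lay above the rest. With rAPOE, the ratio of inducible to constitutive cutting subunits in library 3 was 1.291, Psmb5 in library 5 was 18.65 and Psmd5 in library 1 was 77.78, each above the rest.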

How the results depend on the processing

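The rise of Psmb9 passed under every alternative run except the replicate block (adjusted p = 0.062), which left 0 inducible members higher; without KO 1, 1 inducible member (Psme1) was lower. Fallen constitutive or accessory members numbered 5, 4 to 6 under the other settings and 4 to 8 without 1 library, with 8 without WT 8; without KO 2 or KO 3, 1 rose (0 to 1). With a pseudocount of 5, 1 member (Psmd1) rose after rAPOE. Over all genes between genotypes, 535 were higher and 2061 lower; quantile normalisation gave 920 and 1027, edgeR gave 1159 lower, a mean of at least 50 gave 801 lower and no filter 3191 lower. Over all genes after rAPOE, 26 were higher and 8 lower; a pseudocount of 5 gave 47 and 17, quantile normalisation 45 and 22, DESeq2 66 and 48, edgeR 1 lower, a mean of at least 50 gave 16 lower, the block 17 lower, and omitting both libraries 5 gave 10 and 1. Without 1 library these ranged from 13 (rAPOE 5 left out) to 36 higher and from 2 (PBS 3 or rAPOE 2 left out) to 38 lower (rAPOE 3 left out), and between genotypes from 402 to 791 higher and 1602 to 2378 lower; the cause was not tested. Same-numbered libraries shared a number, and the labels name nothing else that they share. Their deviations correlated at -0.03 to 0.02 between genotypes and -0.004 to 0.19 between injections. Between injections, libraries 4 and 5 of one group correlated at 0.097 to 0.19 with libraries 4 and 5 of the other, whether or not the numbers matched. With libraries 1 to 3 of the other group they correlated at -0.11 to -0.011. What libraries 4 and 5 have in common was not tested. Between genotypes the block compared libraries 1 to 4 only, and 6 constitutive or accessory members were lower (Psmb4 and Psmd4 added, Psmd7 not among them). With the block, 0 members passed after rAPOE. At 704225 to 1347501 reads, 42 of 44 members' intervals after injection included a 2-fold change.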
